A study of Danio rerio with 32 samples.

Results

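The injured liver of wild-type (WT) zebrafish larvae was compared at 24 h and at 12 h of APAP treatment. APAP is acetaminophen, a drug that injures the liver when overdosed. The comparison took the 4 WT, APAP, 24 h libraries and the 4 WT, APAP, 12 h libraries, which are 8 of the 32 RNA-seq libraries of the study. Each library was made from 20 dissected and pooled livers. The other libraries come from WT larvae given DMSO, the solvent control, and from nrf2KO larvae given APAP or DMSO at the same times. The label nrf2KO names a knockout of the transcription factor Nrf2. WT DMSO and nrf2KO APAP livers each have 4 libraries at 12 h and 4 at 24 h. They are used here to show how the same interval looked without the drug and in the nrf2 knockout. The 3 changes over time share no libraries, but they share the estimate of each gene's spread. The labels give neither the dose, the age of the larvae, the hour of the day nor the mutated gene copy. Time since treatment, larval age and hour of the day therefore cannot be told apart within any of them. Whether the 4 libraries of a group come from separate clutches is not stated, so the p-values measure the spread between pools. In the main fit that spread was estimated over all 32 libraries, not only those compared.

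Hepatocytes turn APAP into a reactive quinone imine that uses up glutathione and binds to proteins, and in mammals the dead cells are later replaced by division of surviving hepatocytes. Nrf2 is released from Keap1 by such electrophiles and switches on genes for glutathione and thioredoxin metabolism. Liver gene activity also follows the circadian clock, in which CLOCK and BMAL1 activate the period and cryptochrome genes whose products repress them, and zebrafish organs hold such clocks that light sets directly.

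The 8 libraries held 3971569 to 5631360 counts assigned to genes, and 10984 to 13547 genes had at least 1 count. WT APAP 12 h replicate 2 was the shallowest library, had the fewest genes and stood apart on the first principal component of the 8 libraries, at -115.8 against -16.52 to 45.28 for the others. Hepatocyte markers made up 8.29% to 11.9% of counts at 12 h and 6.99% to 10.9% at 24 h, and the larval liver marker fabp10a, a fatty acid binding protein, was among the abundant genes of all 8. Pancreas markers made up 3.56% to 5.15% of counts at 12 h, but 2.44%, 17.8%, 2.17% and 10.01% in 24 h replicates 1 to 4, so the dissected 24 h pools differed in how much pancreas RNA they held. Nothing in the labels names a batch.

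Few genes passed the test between the 2 times in the injured liver. With edgeR's quasi-likelihood test fitted over all 32 libraries, 6 of 11384 genes had a Benjamini-Hochberg adjusted p under 0.05, which is 0.0527% of those tested. dbpb was the 1 that rose, which is 0.00878%, and cox7a1, hbae3, ESD, calr3a and pvalb9 fell, which is 0.0439%. At an unadjusted p under 0.05 there were 518 genes, no more than the share of 0.05 that such a threshold passes with no change. WT DMSO liver had 1258 such genes and nrf2KO APAP liver 1342. The 4 libraries of one time lay wholly above the 4 of the other for 233 genes that were higher at 24 h (2.05%) and for 230 that were lower (2.02%). The median log2 fold change over all tested genes was 0.01. In WT DMSO liver, the same interval gave 233 called genes (2.05%), 138 higher and 95 lower, and in nrf2KO APAP liver it gave 50 (0.439%), 9 higher and 41 lower. All values per library below are CPM, which are counts scaled to a common library size after TMM normalization, listed for replicates 1 to 4 in order.

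The gene that rose, dbpb (ENSDARG00000057652), encodes a PAR bZIP transcription factor driven by the circadian clock. Its level was 2.2, 0.423, 2.83 and 1.69 CPM at 12 h and 38.9, 34.4, 15.7 and 21.5 CPM at 24 h. Every 24 h library was above every 12 h library, by a log2 fold change of 3.93 ± 0.71 (SE, n = 4 and 4, edgeR adjusted p = 0.00889). It also rose in WT DMSO liver (2.36 ± 0.64, adjusted p = 0.0382) and in nrf2KO APAP liver (3.23 ± 0.69, adjusted p = 0.0143). The difference between the WT APAP and the WT DMSO change was 1.57 (95% interval -0.25 to 3.39).

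cox7a1 (ENSDARG00000069464) encodes a subunit of cytochrome c oxidase, which in mammals is the form found in heart and skeletal muscle. It stood at 40.2, 53.9, 73.4 and 48.8 CPM at 12 h and at 18.9, 13.4, 15.1 and 15.4 CPM at 24 h. The 2 times did not overlap, and the gene fell by 1.78 ± 0.31 on the log2 scale (edgeR adjusted p = 0.00889). In WT DMSO liver it was 119 ± 46.3 CPM (SD) at 12 h and 214 ± 16.7 CPM at 24 h, so the mean was higher at the later time, although that change did not pass the test (adjusted p = 0.165). The change with APAP differed from the change with DMSO by -2.63 ± 0.43 (adjusted p = 0.00127). In nrf2KO APAP liver cox7a1 fell by 2.49 ± 0.32 (adjusted p = 1.74e-05).

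hbae3 (ENSDARG00000079305) encodes an embryonic alpha globin of red blood cells. The 12 h libraries had 645, 1233, 721 and 1489 CPM and the 24 h libraries 141, 357, 244 and 218 CPM. Again no 24 h library reached a 12 h one, and the gene fell by 2.09 ± 0.38 on the log2 scale (edgeR adjusted p = 0.00889). In WT DMSO liver it was 996 ± 294 CPM at 12 h and 1318 ± 545 CPM at 24 h, and the difference between the 2 changes was -2.49 ± 0.52 (adjusted p = 0.0239). Its summed raw counts there were 29970 at 12 h and 26753 at 24 h, with mean library totals of 5204810 and 5518230. The higher WT DMSO mean of hbae3 at 24 h therefore rests on the TMM scaling. In nrf2KO APAP liver it fell by 2.37 ± 0.38 (adjusted p = 0.000598). Globin genes lie in clusters of near-identical copies, so the share of reads given to each copy is uncertain. In bulk liver, fewer cells of a type and less RNA per cell cannot be told apart.

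ESD (ENSDARG00000019496) encodes S-formylglutathione hydrolase, which completes the glutathione-dependent clearance of formaldehyde. It was at 59.15, 71.6, 63.6 and 45.7 CPM at 12 h and at 19.7, 19.6, 16.8 and 24.8 CPM at 24 h, without overlap, and fell by 1.57 ± 0.32 on the log2 scale (edgeR adjusted p = 0.0370). WT DMSO liver held 74.0 ± 23.0 CPM and 67.5 ± 16.4 CPM at the 2 times. The difference between the changes, -1.44 (95% interval -2.32 to -0.55), did not pass the test over all genes (adjusted p = 0.321). calr3a (ENSDARG00000103979) belongs to the calreticulin family of calcium-binding chaperones of the endoplasmic reticulum (ER). Its 12 h values of 469.7, 433, 465 and 396 CPM and its 24 h values of 177, 156, 185 and 179 CPM were tight within each time, and it fell by 1.34 ± 0.27 (edgeR adjusted p = 0.0370). calr3a also fell in WT DMSO liver, by 1.06 ± 0.27 (adjusted p = 0.0249).

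pvalb9 (ENSDARG00000071601) encodes a parvalbumin, a small calcium-binding protein. It was at 42.4, 104, 34.8 and 25.2 CPM at 12 h and at 5.22, 8.60, 8.97 and 2.78 CPM at 24 h, and fell by 3.00 ± 0.63 on the log2 scale (edgeR adjusted p = 0.0425). The WT DMSO means were 31.6 ± 11 CPM and 11.1 ± 12.8 CPM, so the gene was lower at 24 h there too, without passing the test (log2 fold change -1.51, adjusted p = 0.240). Skeletal muscle markers, whose part in this result was not tested, made up 0.940% to 2.37% of counts at 12 h and 0.914% to 1.76% at 24 h.

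**Figure D1:**
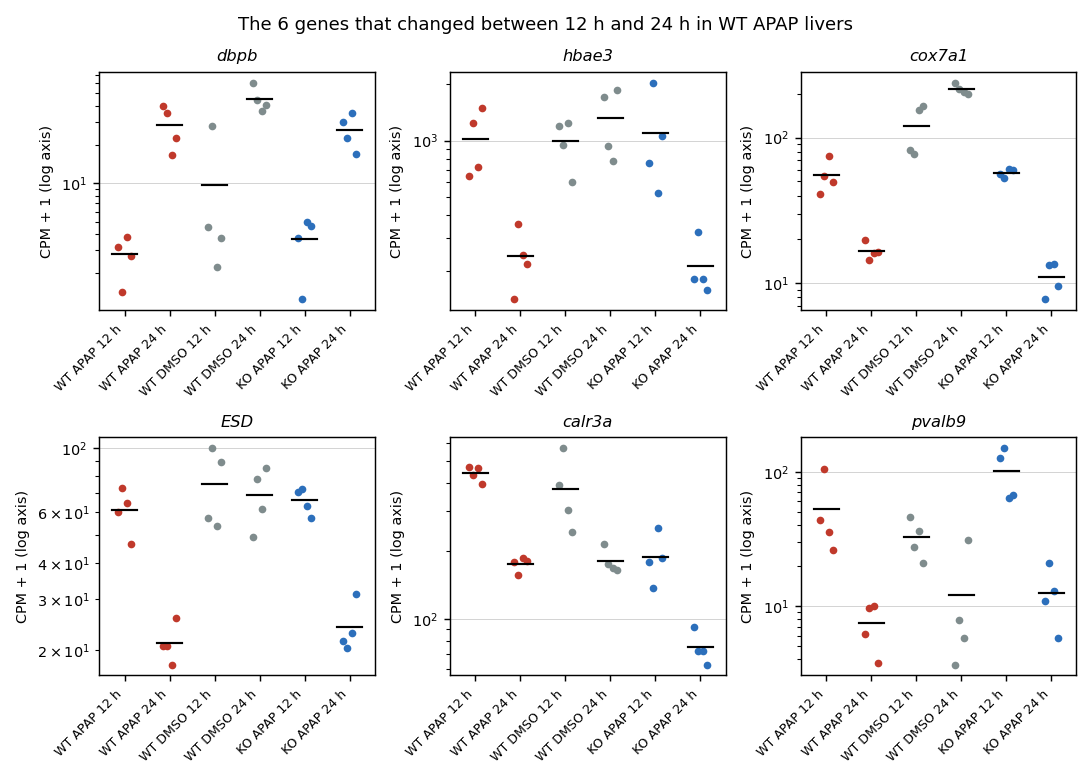
CPM + 1 on a log axis for the 6 genes called between 24 h and 12 h in WT APAP liver, with 1 point per library and a bar at the mean for 12 h and 24 h in WT APAP, WT DMSO and nrf2KO APAP liver. The 4 WT APAP libraries of the 2 times do not overlap in any panel. The WT DMSO mean is higher at 24 h in the cox7a1 and hbae3 panels, for hbae3 only after TMM scaling.

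All 6 genes were also called in nrf2KO APAP liver, in the same direction, which is 100% of the 6 and 12% of the 50 genes called there. Of all tested genes, 0.439% were called in nrf2KO APAP liver. Of the 6, 2 were called in WT DMSO liver (2.05% of all tested genes), dbpb and calr3a, both in the same direction. The comparisons share 1 estimate of spread per gene, so their calls are not independent. The difference between the WT APAP and the nrf2KO APAP change was between -0.07 and 0.71 for the 6, and none passed the test.

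The direction of all 6 held whichever library was left out, but the calls did not. Leaving out 1 of the 8 libraries at a time left 1 or 2 called genes in place of 6. dbpb remained called in 5 of the 8 fits, and its adjusted p was at most 0.0775, without 12 h replicate 2. Its call also ended without 12 h replicates 1 and 4. cox7a1 remained called in 4 of the 8, with an adjusted p of up to 0.0696 without 24 h replicate 2. Its call also ended without 12 h replicate 3 and 24 h replicates 3 and 4. hbae3 remained called in 3 of the 8, with an adjusted p of up to 0.144 without 24 h replicate 1. Its call also ended without 12 h replicates 2 and 4 and 24 h replicates 3 and 4. The calls of ESD, calr3a and pvalb9 ended without any 1 of the 8 libraries, with an adjusted p of up to 0.198, 0.208 and 0.411. limma voom called none of the 6, with adjusted p from 0.0528 for calr3a to 0.408 for pvalb9, while DESeq2 called 31 genes, 11 higher and 20 lower.

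Among the genes just outside the threshold were the apolipoprotein genes apoc1 and apoc2, chosen here after their values were seen, as were some other genes named below for their place in a list. apoc1 (ENSDARG00000092170), a small component of plasma lipoproteins, was at 5698, 3706, 7963 and 7859.5 CPM at 12 h and at 3351, 2371, 2152 and 2470.5 CPM at 24 h. The times did not overlap (log2 fold change -1.29 ± 0.28, edgeR adjusted p = 0.0768). Its log2 fold change in WT DMSO liver was 0.05 (95% interval -0.52 to 0.61). apoc2 (ENSDARG00000092155), the activator of lipoprotein lipase, was at 1967, 1541, 1247 and 1392 CPM and then at 490.0, 411, 737 and 667 CPM (-1.42 ± 0.32, adjusted p = 0.0830). These values also show no overlap. eevs, an enzyme that fish use to make the sunscreen compound gadusol, was at 0 to 0.653 CPM at 12 h and at 2.78 to 8.43 CPM at 24 h (4.18 ± 0.98, adjusted p = 0.145).

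A wider set was called when the fit or the libraries that set the spread were changed. DESeq2 called 31 genes. edgeR without the 3 libraries of the series with the fewest genes, none of them WT APAP, called 45. The 2 settings shared 25 genes, 11 higher and 14 lower at 24 h. They were chosen because they called many genes, and both use the same 8 WT APAP libraries. limma voom called 0. Besides the 6, the 25 shared genes included apoc1 and apoc2 and the clock genes PER1, ciarta, cipcb and nfil3-5. They also held the tryptophan-degrading enzyme tdo2b, the globin HBE1, the glutathione transferase gstk1 and the fatty acid oxidation enzyme DECR1.

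Clock genes had the most members without overlap between the times among the 37 gene lists. Of 40 tested clock genes 1 was called, dbpb (0.00878% of all genes were called higher). The 2 times did not overlap for 11 that were higher at 24 h (2.05% of all tested genes) and 2 that were lower (2.02%). The median log2 fold change of the 40 was 0.39, against 0.01 for all tested genes. Leaving out 1 library at a time gave 11 to 13 higher members without overlap, against 3.25% to 4.69% of all tested genes in those fits. It gave 2 to 5 lower members, against 2.53% to 4.04%. Groups of 3 and 4 libraries separate more easily than 4 and 4, so these counts cannot show stability. In WT DMSO liver 9 clock genes rose and 3 fell (1.21% and 0.835% of all genes), with 18 higher and 5 lower without overlap (5.79% and 4.51% of all genes) and a median of 1.05. In nrf2KO APAP liver 1 rose (0.0791% of all genes), 11 were higher without overlap (4.11% of all genes), and the median was 0.50. The medians over all tested genes were -0.06 in WT DMSO and 0.21 in nrf2KO APAP liver.

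Of the transcription factors at the output of the clock, tefa (ENSDARG00000039117), a PAR bZIP factor like dbpb, was at 15.4, 16.7, 8.28 and 8.46 CPM at 12 h and at 54, 44.2, 44.3 and 59.4 CPM at 24 h. Each 24 h library was well above each 12 h library, but the log2 fold change of 2.04 ± 0.60 did not pass the test over all genes (edgeR adjusted p = 0.383). With DMSO tefa rose by 3.75 ± 0.64 (adjusted p = 0.000318), from 6.54 ± 5.61 to 88.4 ± 14.1 CPM. Its paralogue dbpa was at 0 to 1.69 CPM and then at 3.41 to 21.5 CPM. nfil3-5 (ENSDARG00000094965) belongs to a family of bZIP repressors that bind the sites PAR bZIP factors bind, and went the other way. It was at 8.96, 7.19, 84.3 and 39.5 CPM at 12 h and at 0.201, 1.4, 2.99 and 2.27 CPM at 24 h (log2 fold change -4.33 ± 1.05, adjusted p = 0.165). All 12 h libraries were above all 24 h libraries, with a wide spread at 12 h.

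Among the repressors of CLOCK and BMAL1, 1 of the 2 PER1 copies (ENSDARG00000012499) was at 2.2, 3.17, 0 and 0.846 CPM at 12 h and at 25.7, 23.2, 17.0 and 26.5 CPM at 24 h. The 24 h libraries were tightly grouped far above the 12 h ones (log2 fold change 3.86 ± 0.93, edgeR adjusted p = 0.162), and in WT DMSO liver this copy rose by 5.03 ± 0.96 (adjusted p = 0.00125). PER2 was at 6.76, 3.59, 8.06 and 10.1 CPM and then at 35.5, 24.2, 25 and 20.7 CPM (1.88 ± 0.67, adjusted p = 0.701). PER3 was at 1.27 to 5.44 CPM and then at 6.83 to 22.2 CPM (1.96 ± 0.74, adjusted p = 0.799). These 3 period genes had no overlap between times. The second PER1 copy (ENSDARG00000056885) was at 1.86, 0, 0.653 and 0 CPM and then at 3.21, 9.61, 2.80 and 1.26 CPM, with overlap (2.68 ± 1.36, adjusted p = 1).

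The cryptochrome CRY1 (ENSDARG00000045768) was at 16.4, 11.6, 16.8 and 22.2 CPM at 12 h and at 34.9, 33.6, 39.1 and 55.9 CPM at 24 h (1.29 ± 0.42, edgeR adjusted p = 0.602). CRY2 was at 3.21, 0, 1.52 and 0 CPM and then at 13.2, 3.60, 8.04 and 14.9 CPM (3.02 ± 1.01, adjusted p = 0.667). ciarta (ENSDARG00000058094), a copy of another circadian repressor, was at 2.87, 0.211, 1.31 and 0 CPM and then at 13.5, 20.0, 11.8 and 8.59 CPM (3.55 ± 0.86, adjusted p = 0.165). In these 3 repressor genes too, the lowest 24 h library was above the highest 12 h library.

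Of the activators, CLOCK was at 5.41, 9.30, 2.61 and 3.38 CPM at 12 h and at 0.201, 1.80, 4.49 and 0.253 CPM at 24 h, with overlap (-1.60 ± 1.27, edgeR adjusted p = 1). BMAL1 (ENSDARG00000035732) was at 1.52, 3.80, 1.31 and 0.423 CPM at 12 h and at 0, 0.200, 0.374 and 0 CPM at 24 h, without overlap but at few counts per library. The second tested BMAL1 copy overlapped between times (-1.06 ± 1.43). rorcb, a nuclear receptor of the ROR family that activates BMAL1 in mammals, was at 18.1, 4.23, 22.9 and 15 CPM at 12 h and at 4.02, 0, 5.61 and 1.26 CPM at 24 h, with overlap (-2.45 ± 0.99, edgeR adjusted p = 0.868). With DMSO rorcb fell by 4.87 ± 1.18 (adjusted p = 0.0148). NR1D1, the nuclear receptor that represses BMAL1, was at 0 to 6.10 CPM at 12 h and at 8.04 to 15.7 CPM at 24 h. No clock gene passed the test of the difference between the WT APAP and the WT DMSO change (smallest edgeR adjusted p of the 40, 0.680). The median difference was -0.48, with 26 below 0 and 14 above, against 0.06 for all tested genes. The test does not show that the 2 changes were equal.

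**Figure D2:**
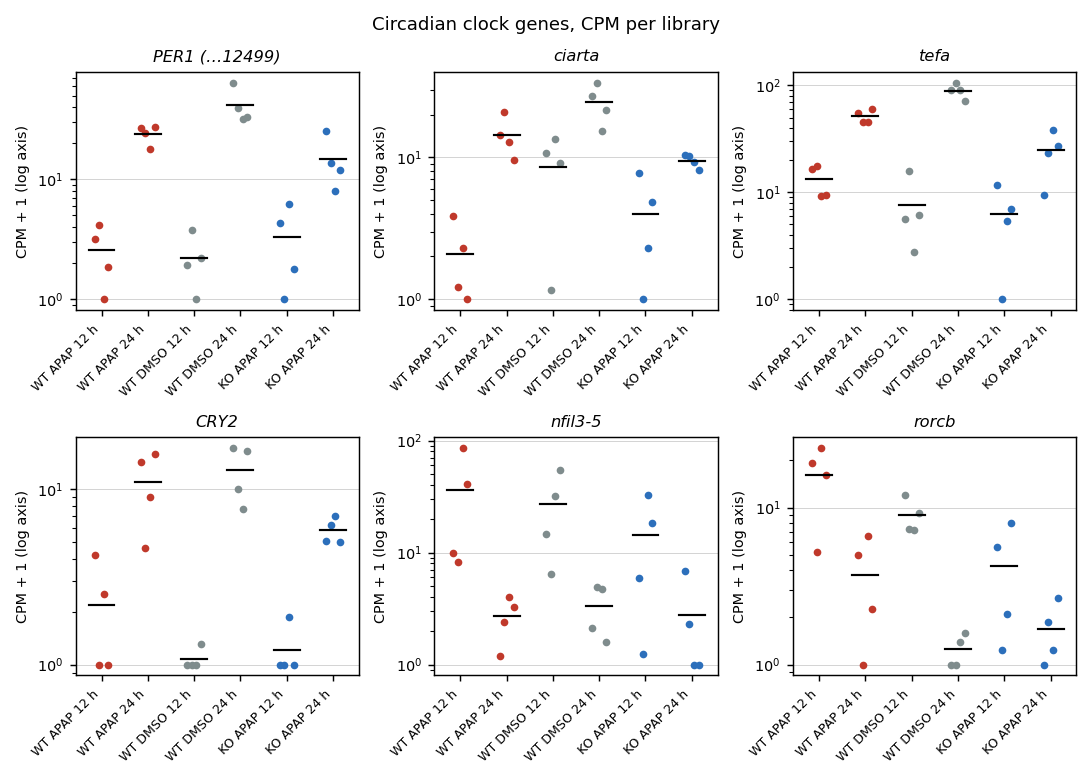
CPM + 1 on a log axis for PER1 (ENSDARG00000012499), ciarta, tefa, CRY2, nfil3-5 and rorcb, with 1 point per library and a bar at the mean for both times in WT APAP, WT DMSO and nrf2KO APAP liver. In WT APAP liver the first 4 are higher at 24 h without overlap and nfil3-5 is lower without overlap, while rorcb overlaps.

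**Figure D3:**
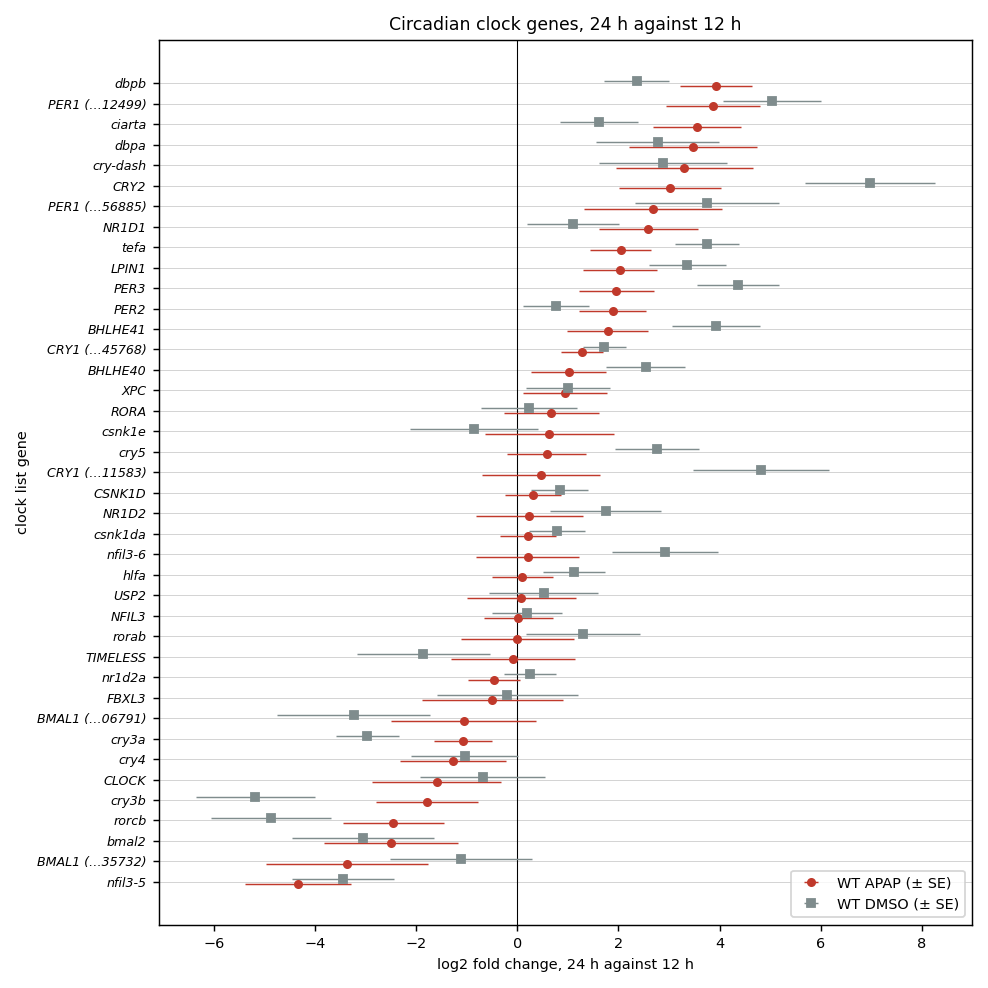
Log2 fold change of 24 h over 12 h with its SE for the 40 tested clock genes in WT APAP liver and in WT DMSO liver. The values range from -4.33 to 3.93 in WT APAP liver, and most genes lie on the same side of 0 in both.

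Most red blood cell genes stood lower at 24 h in the injured liver. Of 15 tested markers 13 had a log2 fold change below 0, and the median was -0.95. Only hbae3, 1 of the 6 called genes above, fell (0.0439% of all genes were called lower). Without overlap 3 were lower (2.02% of all genes) and 0 higher (2.05%). Of the rest of the alpha globin genes tested, hbae1.1, hbae1.2 and hbae1.3 had log2 fold changes of -0.89 ± 0.37, -1.23 ± 0.41 and -0.90 ± 0.40, hbae4 had -1.37 ± 1.49 at few counts, and hbae5 had -0.07 ± 0.70 at means of 29.4 and 28 CPM. The embryonic beta globin HBE1, which was not on the list, had -1.56 ± 0.39 (edgeR adjusted p = 0.193). HBE1 was at 277, 862, 307 and 574 CPM at 12 h and at 111, 259, 173 and 141 CPM at 24 h. Its 2 times did not overlap. The median of the 15 with DMSO was 0.88. The list's summed share of counts was 0.113% to 0.258% at 12 h and 0.0439% to 0.0824% at 24 h, without overlap. hbae3 alone was 50.8% of this sum, so the share largely repeats the result for that gene. The exact two-sided permutation test gave p = 0.0286, the smallest that 4 against 4 libraries allow, and 0.162 after adjustment over 17 composition measures. WT DMSO livers held 0.229% ± 0.103 (SD over 4 libraries) at the earlier time and 0.232% ± 0.0904 at the later. These shares are without TMM scaling, unlike the log2 fold changes. hbaa2 and gata1a had no counts in the 8 libraries.

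The difference from WT DMSO was called for hbae3 and for hbae1.2 in this list, where 0.0878% of all genes were called lower. hbae1.2 (ENSDARG00000088330) was at 135, 285, 60.8 and 178 CPM at 12 h and at 24.5, 90.6, 81.3 and 85.2 CPM at 24 h in WT APAP liver, with overlap. In WT DMSO liver it was at 94.3 ± 41.3 CPM and 228 ± 127 CPM, and the difference was -2.50 ± 0.58 (edgeR adjusted p = 0.0499). In the 16 fits that left out 1 WT APAP or WT DMSO library, hbae1.2 remained called in 3, with an adjusted p of up to 0.260. The difference of hbae3 remained called in 9.

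Markers of other cell types gave few differences. The summed macrophage list was 0.681% of counts at 12 h and 0.281% at 24 h and the intestine list 1.76% and 0.795%, each with exact permutation p = 0.0286 (adjusted 0.162). WT DMSO means were also lower at 24 h, at 0.910% and then 0.642% for macrophages and at 1.94% and then 1.47% for intestine. These are shares of counts without TMM scaling. After TMM, the macrophage list gene apoc1 was not lower at 24 h in WT DMSO liver, at 6494 ± 2067 and then 6700 ± 2260 CPM. The lower WT DMSO macrophage share therefore depends on the scaling. In WT APAP liver apoc1 alone was 91.6% of the macrophage sum. Of the intestine sum there, the intestine marker RBP2 was 35.03% and apoc1 35%. Mean RBP2 was 6622 CPM at 12 h and 2363 CPM at 24 h, here without TMM scaling. Without the apolipoprotein genes and RBP2, the WT APAP shares were 0.0437% and 0.0387% for macrophages and 0.119% and 0.0962% for intestine. This trim takes out the largest intestine markers, so it does not show that the intestine difference was absent. Of 32 macrophage markers 6 had no count, the macrophage genes CORO1A and cxcr3.2 among them, and of 20 neutrophil markers 6 had none. Pancreas markers had a median log2 fold change of 1.12 with 27 of 28 above 0, none called and none without overlap, and their median in WT DMSO liver was 1.41. Stellate and mesenchymal markers were 0.155% of counts at 12 h and 0.107% at 24 h (exact permutation p = 0.0571, adjusted 0.243). Their WT DMSO means were also lower at 24 h, at 0.217% and then 0.170%.

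ER chaperones other than calr3a pointed down without passing the test. Of 53 tested ER stress and folding genes, 42 had a log2 fold change below 0, the median was -0.27, 6 were lower without overlap (2.02% of all genes) and none was higher (2.05% of all genes). In WT DMSO liver the median was -0.28, and 36 lay below 0. Without overlap 12 were lower there (4.51% of all genes) and 4 higher (5.79%). HSP90B1, the main ER form of the Hsp90 chaperone, was at 545, 881, 1027 and 691 CPM at 12 h in WT APAP liver. At 24 h it was at 425, 371, 308 and 167 CPM there. The times did not overlap (-1.31 ± 0.40, edgeR adjusted p = 0.454), and in WT DMSO liver the gene fell by 2.03 ± 0.41 (adjusted p = 0.00250). HSPA5, the ER Hsp70 chaperone, was at 959, 1122, 933 and 1637 CPM and then at 584, 928, 655 and 603 CPM (-0.75 ± 0.32). The disulfide isomerase PDIA6 was at 26.9 to 49.2 CPM and then at 19.5 to 26.2 CPM.

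Of the genes for secreted liver proteins, 63 plasma protein genes had a median of -0.16, with none called, 1 higher without overlap (2.05% of all genes) and 3 lower (2.02%). APOB, the structural protein of very low density lipoprotein, was at 512, 352, 189 and 275 CPM at 12 h and at 111, 29, 214 and 165 CPM at 24 h, with overlap (-1.36 ± 0.40, edgeR adjusted p = 0.383). fetub, a secreted protease inhibitor of the fetuin family, was at 2766, 1297, 3424 and 4239 CPM and then at 6567, 4783, 2150.1 and 11967 CPM. Its 24 h replicate 3 lay within the 12 h values. The complement gene c4b was at 19.1, 13.1, 11.8 and 36.6 CPM and then at 7.23, 5.80, 3.74 and 3.54 CPM (-1.98 ± 0.59, adjusted p = 0.385), while c3a.1 was at 609 to 1689 CPM and at 1032 to 1672 CPM. The 28 complement genes had a median of 0.01. leap2, an antimicrobial peptide of the liver, was at 5.71 to 10.8 CPM and then at 0.402 to 4.30 CPM.

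The 78 tested genes of enzymes that conjugate and clear foreign compounds had a median of -0.03, with none called, 1 higher without overlap (2.05% of all genes) and 7 lower (2.02%). The lower genes included glutathione transferases, the enzymes that attach glutathione to electrophiles. gstk1 was at 47, 74.6, 68.4 and 56.7 CPM at 12 h and at 33.7, 25.6, 20.7 and 18.7 CPM at 24 h (-1.32 ± 0.34, edgeR adjusted p = 0.211). It fell in nrf2KO APAP liver, by 2.22 ± 0.35 (adjusted p = 0.000545). MGST3, GSTZ1 and gstt1a also had no overlap between the times, with log2 fold changes of -0.94 ± 0.29, -1.11 ± 0.37 and -0.996 ± 0.36. cyp3a65, a cytochrome P450 of the family that handles many drugs, was at 1005, 929, 2759 and 2223 CPM and then at 3953, 3299, 1659 and 6329 CPM, with overlap.

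Fatty acid oxidation genes had a median of -0.37 over 47 tested, with none called, 4 lower without overlap (2.02% of all genes) and none higher (2.05%). DECR1, which prepares unsaturated fatty acids for oxidation, was at 38.4, 23.2, 41.6 and 20.1 CPM at 12 h and at 8.43, 7.40, 7.10 and 3.29 CPM at 24 h (-2.22 ± 0.63, edgeR adjusted p = 0.353). oxct1b, an enzyme of ketone body use, was at 65.4, 30.2, 53.6 and 66.2 CPM and then at 28.5, 9.81, 24.1 and 8.85 CPM (-1.59 ± 0.45, adjusted p = 0.353). EHHADH, of the peroxisomal pathway, was at 16.7 to 36.6 CPM and then at 8.60 to 14.9 CPM. None of the 3 overlapped between times. The 85 tested genes of oxidative phosphorylation had a median of -0.09, with cox7a1 called (0.0439% of all genes were called lower), 7 lower without overlap (2.02%) and 1 higher (2.05%).

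Of 70 tested genes of amino acid catabolism none was called, and the median was 0.10. Without overlap 3 were higher (2.05% of all genes) and 1 was lower (2.02%). With DMSO 13 rose (1.21% of all genes), and the median was 0.57. tdo2b, which opens the ring of tryptophan, was at 20.8, 17.8, 45.3 and 42.1 CPM at 12 h and at 202, 126, 60.4 and 249 CPM at 24 h (2.34 ± 0.61, edgeR adjusted p = 0.219). ARG2, an arginase, was at 39, 35.1, 131 and 110.1 CPM and then at 449.7, 194, 142 and 221 CPM (1.67 ± 0.46, adjusted p = 0.338). cbsb, a cystathionine beta-synthase, was at 10.5 to 32.5 CPM and then at 46.9 to 96.8 CPM (1.58 ± 0.47, adjusted p = 0.383). TAT, tyrosine aminotransferase, was at 61.5, 27.9, 47 and 67.9 CPM and then at 208, 124, 34.2 and 886 CPM, so 24 h replicate 3 was among the 12 h values and replicate 4 far above the rest. The same 24 h library had the lowest 24 h value of tdo2b, of LPIN1, a lipid synthesis enzyme, at 2.43 CPM against 15.2 to 50.05 CPM, and of UCP1, a mitochondrial carrier, at 2871 CPM against 4185 to 11304 CPM.

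The Nrf2 targets gave no called change between 12 h and 24 h. The median over 36 tested targets was 0.15, and without overlap 2 were higher (2.05% of all genes) and 1 was lower (2.02%). prdx1 (ENSDARG00000058734), a peroxiredoxin, was at 1498, 1354, 1699.7 and 2005 CPM at 12 h and at 1392, 1030.0, 1649 and 964 CPM at 24 h, against 59.0 ± 8.10 and 44.7 ± 15.2 CPM in WT DMSO liver. Its log2 fold change was -0.38 (95% interval -1.09 to 0.33). GSR, which recycles glutathione, stood at 372 ± 91.4 CPM and 359.8 ± 141 CPM, against 16.6 ± 4.86 and 26 ± 11.1 CPM in WT DMSO liver, with a log2 fold change of -0.05 (-0.78 to 0.68). In these 2 genes the WT APAP libraries of the 2 times overlapped and were well above the WT DMSO means.

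None of the 36 was called, although the 95% intervals of MGST3, gpx1a, CBR1 and SQSTM1 lay on 1 side of 0. NQO1, a quinone reductase, had a log2 fold change of -0.02 (-0.80 to 0.76). GCLC, the catalytic subunit for glutathione synthesis, had 0.17 (-0.72 to 1.05). TXNRD3, a thioredoxin reductase, had 0.22 (-0.32 to 0.76). The heme oxygenase HMOX1 was at 13.7, 7.19, 5.88 and 5.29 CPM and then at 23.9, 14, 25.8 and 14.4 CPM, and its lowest 24 h value was just above its highest 12 h value (1.28, -0.44 to 3.00). SQSTM1, an autophagy receptor, had -0.82 (-1.60 to -0.03, edgeR adjusted p = 1). The transcript of NFE2L2 itself (ENSDARG00000042824), the gene of Nrf2, had 0.10 (-0.67 to 0.87).

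General stress genes gave no called change either. The median was 0.08 over 36 heat shock and chaperone genes, -0.04 over 38 stress transcription factors and 0.02 over 49 proteasome genes. FOS, an immediate early transcription factor, was at 18.6, 12.7, 73.0 and 42.9 CPM at 12 h and at 8.43, 12.6, 15.3 and 6.07 CPM at 24 h, against means of 1.99 and 4.49 CPM in WT DMSO liver. Its 2 times overlapped by the highest 24 h library (-1.79 ± 0.79, edgeR adjusted p = 0.960). BTG2, an antiproliferative gene, was at 66.9, 66.1, 145 and 117 CPM and then at 57.2, 37.4, 54 and 43.5 CPM, without overlap (-1.04 ± 0.68).

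Mitosis genes went both ways with APAP and none was called, whereas many fell with DMSO. Over 64 tested mitosis genes the median log2 fold change was -0.04 in WT APAP liver, with 31 above and 33 below 0 in a range of -3.40 to 2.74. Without overlap 2 were lower there (2.02% of all genes). The median was -3.44 in WT DMSO liver, where 26 fell (0.835% of all genes). CDK1, the kinase that drives entry into mitosis, was at 15.5, 17.5, 19.2 and 12.1 CPM at 12 h and at 25.3, 8.60, 16.1 and 10.6 CPM at 24 h in WT APAP liver, so the 24 h values spanned the 12 h values. In WT DMSO liver CDK1 fell from 27.4 ± 5.55 to 0.502 ± 0.621 CPM, and the 2 changes differed by 5.63 ± 0.86 on the log2 scale (edgeR adjusted p = 0.000407). KPNA2, an importin expressed in dividing cells, was at 51.7, 39.7, 57.5 and 76.3 CPM and then at 112, 109, 66.7 and 78.6 CPM with APAP. It fell from 154 ± 30.8 to 6.26 ± 1.58 CPM with DMSO, and the difference was 5.32 ± 0.80 (adjusted p = 0.000407).

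The change with APAP differed from that with DMSO for 26 genes, 0.228% of those tested, 16 with the higher change in APAP (0.141%) and 10 with the lower (0.0878%). Of the 16, 11 were on the mitosis list. The spindle checkpoint kinase TTK differed by 6.06 ± 1.08, the spindle assembly factor TPX2 by 5.34 ± 0.92, the ubiquitin-conjugating enzyme UBE2C by 4.22 ± 0.81 and the chromatin protein hmga1a by 2.00 ± 0.37, with edgeR adjusted p of 0.00345, 0.00234, 0.00975 and 0.00692. In all 4 the WT APAP log2 fold change was between -0.35 and 0.96. Leaving out 1 of the 16 libraries of these groups at a time kept the calls of CDK1, KPNA2, TTK, TPX2, UBE2C, hmga1a and cox7a1. The other 19 calls each ended in at least 1 such fit, and the count ran from 8, without WT DMSO 24 h replicate 1, to 32, without WT DMSO 12 h replicate 2. The WT DMSO 12 h libraries were also uneven, with 12541 ± 2598 genes with a count (SD), against 11978.5 ± 841 for WT APAP at 12 h.

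**Figure D4:**
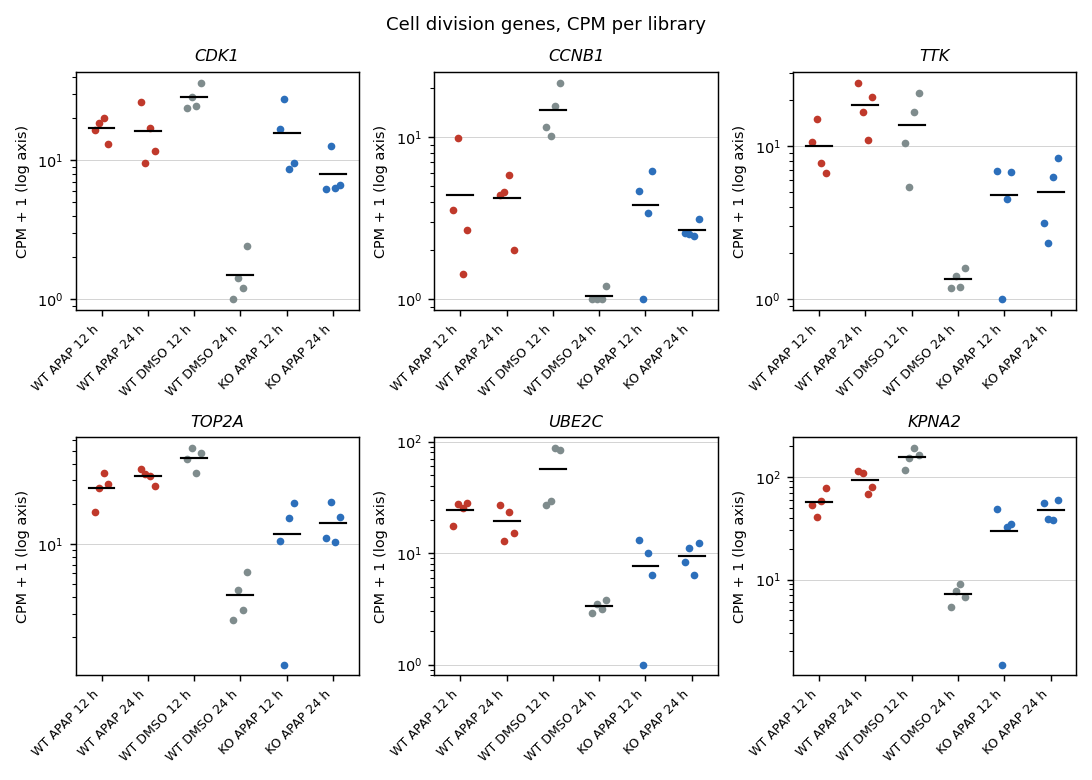
CPM + 1 on a log axis for 6 cell division genes, CDK1, CCNB1, TTK, TOP2A, UBE2C and KPNA2, with 1 point per library and a bar at the mean for both times in WT APAP, WT DMSO and nrf2KO APAP liver. The WT DMSO 24 h libraries lie near the bottom of every panel, at 0.502 CPM on average for CDK1, and the WT APAP libraries overlap between times.

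Most DNA replication genes stood lower at 24 h with APAP, though none was called. Over 53 tested genes the median was -0.50, 43 lay below 0, and 6 were lower without overlap (2.02% of all genes). The WT DMSO median was -1.27, and 5 fell there (0.835% of all genes). PCNA, the sliding clamp of DNA polymerases, was at 358, 352, 473 and 469 CPM at 12 h and at 279, 288, 229 and 238 CPM at 24 h (-0.68 ± 0.34, edgeR adjusted p = 1). pclaf, a PCNA-binding factor, was at 93.0, 161, 169 and 119 CPM and then at 70.7, 71.4, 71.4 and 32.9 CPM (-1.14 ± 0.51, adjusted p = 0.960). CCNE2, a cyclin of entry into replication, was at 15.9 to 29.6 CPM and then at 2.00 to 7.48 CPM. None of the 3 overlapped between times. The 12 h and 24 h means of PCNA in WT DMSO liver were 109.8 ± 18.1 and 32.2 ± 12.6 CPM, below both WT APAP means of 413 ± 66.9 and 258 ± 29.5 CPM.

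On the other side of this difference, PCK1, the enzyme that commits substrates to glucose synthesis, was at 835, 258, 814 and 952 CPM at 12 h and at 1608, 907, 824 and 842 CPM at 24 h with APAP, with overlap. With DMSO it rose from 57.2 ± 37.4 to 477 ± 207 CPM, and the changes differed by -2.51 ± 0.55 (edgeR adjusted p = 0.0352). UCP1 had 2687, 1501, 2814 and 3515 CPM at 12 h and 6441, 4185, 2871 and 11304 CPM at 24 h with APAP. Its WT DMSO means were 531 ± 237 and 5844 ± 1298 CPM, so the lower starting level was that of WT DMSO liver (difference -2.22 ± 0.49, adjusted p = 0.0352). cyp2n13, a cytochrome P450, was at 141 to 221 CPM and then at 47.4 to 167 CPM with APAP, and rose with DMSO from 97.2 ± 61.6 to 357 ± 103 CPM (difference -2.75 ± 0.56, adjusted p = 0.0173). Without WT DMSO 24 h replicate 1 the number of called differences was 8, and of these 3 genes PCK1 remained called in 6, UCP1 in 8 and cyp2n13 in 13 of the 16 fits that left out 1 library.

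No gene passed edgeR's quasi-likelihood test for a different change in WT and nrf2KO APAP liver, which called 0 of 11384 (0%). At an unadjusted p under 0.05 there were 593 genes, close to the share of 0.05 that such a threshold passes with no change. The smallest edgeR adjusted p was 0.0933, DESeq2 called 6 and limma voom none. The nrf2KO APAP 12 h libraries were uneven, with SOX9 at 0.244 to 44.5 CPM and epcam at 0.244 to 54.2 CPM. Outside the 8 WT APAP libraries, the number of genes with a count went as low as 4129. The absence of calls therefore does not show that the WT and nrf2KO changes were equal. For the mitosis list the median in nrf2KO APAP liver was -0.08, for the clock list 0.50 and for the ER list -0.42, against 0.21 for all tested genes there.

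**Figure D5:**
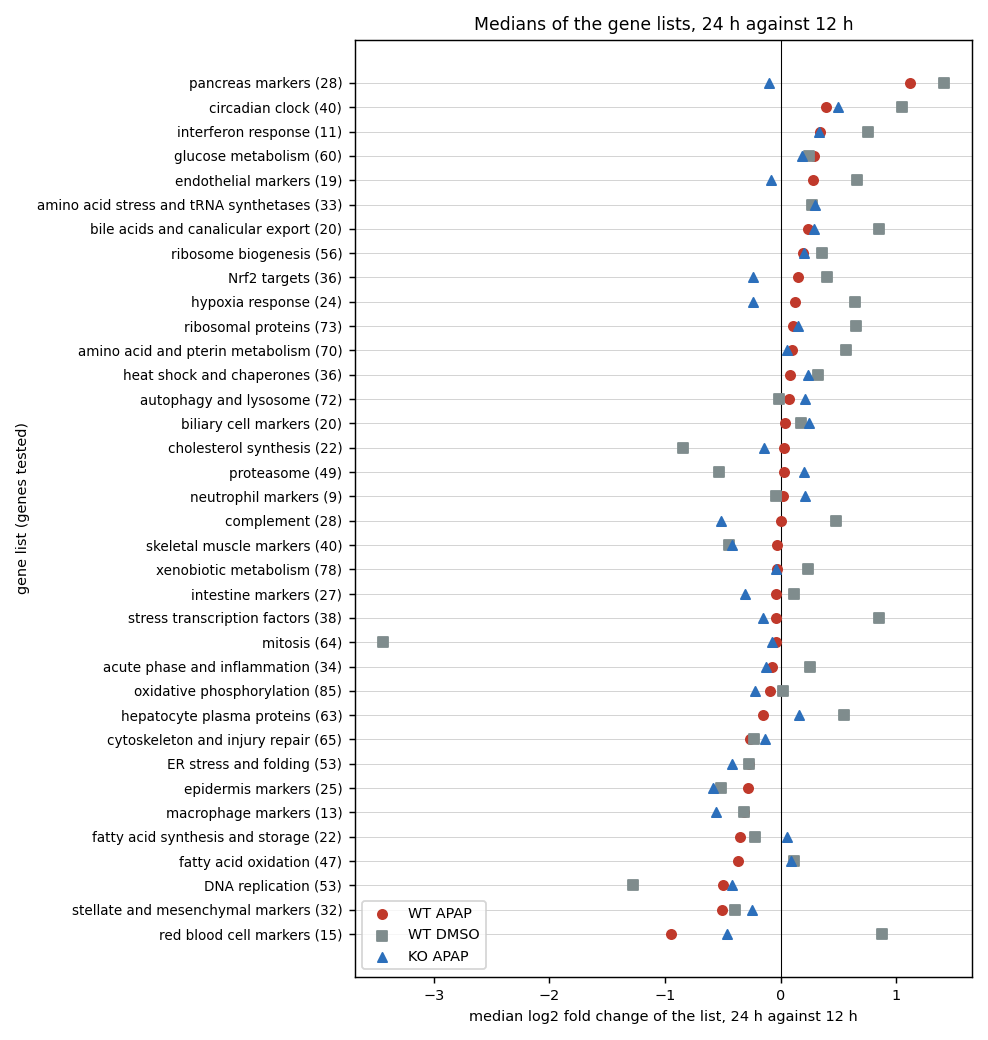
Median log2 fold change of 24 h over 12 h for 36 of the 37 gene lists in WT APAP, WT DMSO and nrf2KO APAP liver, with the number of tested members beside each name. In WT APAP liver the medians run from -0.95 for red blood cell markers to 1.12 for pancreas markers, and the mitosis list is the one farthest apart between WT APAP at -0.04 and WT DMSO at -3.44. The medians over all tested genes were 0.01 in WT APAP, -0.06 in WT DMSO and 0.21 in nrf2KO APAP liver.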

How the data were processed

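RNA was extracted from pools of 20 larval livers, per the labels' protocols, and the submitters' processing notes name bcl2fastq, Trim Galore, HISAT2, HTSeq and the GRCz11 genome build. Versions and the strand setting are not given in the sources used here. The authors deposited 1 table of raw read counts per Ensembl gene for all 32 libraries. Its summary lines of reads without a gene were left out of library sizes and tests (4.42% to 7.39% of reads fell in no feature and 13.8% to 18.7% were not aligned in the 8 libraries).

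Of 32519 genes, 29200 had a symbol in the reference table, and upper-case symbols are zebrafish genes named as there. Genes were filtered with edgeR's filterByExpr over the 8 groups of 4 libraries, leaving 11384, and fitted over all 32 libraries with TMM scaling and the quasi-likelihood F-test (edgeR 4.0.16, limma 3.58.1, DESeq2 1.42.0, R 4.3.3, Python 3.11.15, matplotlib 3.10.9). The spread was shared with 24 residual degrees of freedom, and the common biological coefficient of variation was 0.743. Adjusted p-values are Benjamini-Hochberg over all tested genes with a threshold of 0.05, and SE is the log2 fold change divided by the root of F. CPM values were computed here from the deposited counts. Composition shares were taken from counts without TMM scaling and were compared by exact two-sided permutation over 70 assignments.

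Named genes were the 14 highest and 14 lowest called whose mean log2 CPM reached 2, up to 4 called members per list or the member with the smallest p, the 5 highest and 5 lowest called differences from WT DMSO and nrf2KO, and genes fixed by name. The comparison, the 37 lists and the rule were chosen with earlier results of these data known, and no set test was run. Of 1698 listed symbols 145 were not matched. The main test was tried on simulated data with the same spread for every gene. The real libraries are less even, so that trial does not show how the test performs on them. Alternatives were DESeq2, limma voom, RLE scaling, no filter, only the groups compared, without the 3 libraries with the fewest genes, a replicate block, and leaving out each library. Some items are not reported here.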

Additional observations from a re-analysis of the deposited data

Results flagged for a closer look

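A library stood apart from the other 3 of its time, by Dixon's test at the 95% level, in 5 of the 190 groups of 4 libraries examined, where chance alone flags about 1 in 20. In WT APAP 24 h replicate 4, pclaf was lowest at 32.9 CPM (others 70.7 to 71.4) and leap2 highest at 4.3 CPM (others 0.402 to 0.935). In 24 h replicate 1, PCK1 was highest at 1610 CPM (others 824 to 907) and hbae1.2 lowest at 24.5 CPM (others 81.3 to 90.6). In 12 h replicate 2, cyp2y3 was lowest at 419 CPM (others 600 to 628).

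The change from 12 h to 24 h differed between WT APAP and WT DMSO liver, in the test of the difference itself, for 13 of the named genes. Most of them were named because they had the 5 highest or 5 lowest called differences, so this count is no separate result. Over all tested genes 26 were called (0.228%). Of the 13, only TTK, CDK1 and cox7a1 remained called in all 16 fits that left out 1 library. The log2 difference was positive for CCNB1 (7.5), aurka (6.15), TTK (6.06), BIRC5 (5.75), CDC20 (5.72), CDK1 (5.63) and TOP2A (4.07), all genes of cell division. CCNB1 is so low in WT DMSO at 24 h, 0.05 CPM on average, that its value depends on the prior count. It was negative for SELENOO (-7.18), cyp2n13 (-2.75), cox7a1 (-2.63), PCK1 (-2.51), hbae1.2 (-2.5) and hbae3 (-2.49).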

How the results depend on the processing

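Counts of called genes were the least stable values. For WT APAP, 6 became 47 with no filter on low counts, 45 without the 3 libraries with the fewest genes, 10 with only the groups compared, 31 with DESeq2 (644 at an unadjusted p under 0.05), 0 with limma voom (588) and 1 to 2 without 1 library. For WT DMSO, 233 became 538 without the 3 libraries, 440 with voom, 453 with DESeq2 and 140 to 249 without 1 library. For nrf2KO APAP, 50 became 212 with no filter, 5 with only the groups compared, 287 with DESeq2 and 12 to 87 without 1 library (12 without 24 h replicate 3). The difference from WT DMSO went from 26 to 64 with no filter, 79 without the 3 libraries, 57 with DESeq2 and 8 to 32 without 1 library. The difference from nrf2KO went from 0 to 30 with no filter, 6 with DESeq2 and 0 to 2 without 1 library. The causes were not tested. With the replicate number as a block, 5 genes were called in WT APAP and 16 differences from WT DMSO. Same-numbered libraries did not deviate together (r = -0.0988, 0.0237, -0.0801 and -0.0223), so no pairing by number was seen. With so few libraries this does not exclude pairing. RLE scaling called 8 genes.

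None of the 6 called genes changed sign. Among uncalled genes, signs turned for CCNB1 (block 0.196, voom 0.444), NQO1 (block 0.0381), JUNB (ENSDARG00000104773, block 0.853, voom 1.12), CYP7A1 (voom -1.20), CARTPT (ENSDARG00000035852, block -0.175, voom -0.071) and lyz (voom -0.169). Without 1 library, log2 fold changes crossed 0 for CCNB1 (-0.43 to 1.07), NFE2L2 (-0.18 to 0.22), keap1a (-0.0658 to 0.35), GSR (-0.23 to 0.16), NQO1 (-0.53 to 0.29), hsp70.3 (-0.99 to 0.0173), JUNB (-1.001 to 1.05), mdm2 (-0.25 to 0.14), GADD45B (ENSDARG00000027744, -0.14 to 0.42), CDK1 (-0.42 to 0.10), MCM2 (-0.11 to 0.41), CYP7A1 (-1.27 to 0.92), apoa1a (-0.50 to 0.0371), apoa1b (-0.55 to 0.26), CARTPT (ENSDARG00000035852, -0.49 to 0.39, and ENSDARG00000070930, -0.59 to 0.23), NR1D2 (-0.11 to 1.2), ASNS (-0.47 to 1.13) and PSMB5 (-0.10 to 0.28). List medians moved by less than the replicate spread in 496 of the fits and more in 59. At 3971569 to 5631360 counts per library, genes of few CPM rest on few reads, so small differences in them could not be seen.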
